A study of Ziziphus jujuba with 15 samples.

Results

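gene21597 (LOC107430166) and gene15133 (LOC107423197) are an HSP90 gene and an HSP70 gene of jujube, *Ziziphus jujuba*. They were chosen by their IDs, as 2 of the 32876 genes in the expression table, with earlier results of these data known. The aim was a description of their level, timing and replicate spread. The protein of gene21597 was annotated as heat shock protein 83, with an Hsp90 domain, and that of gene15133 as an HSP70 protein, with an Hsp70 domain. In each library the level is given as FPKM, a fragment count scaled for exon length and library depth, so that the levels of both genes can be set beside each other.

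Leaves came from seedlings of ‘HS’ (HS-Haoqing1 in the labels), a heat-sensitive cultivar raised from cuttings. The controls, 0 d, had received no heat, and grew at a day temperature of 30 °C and a night temperature of 20 °C. The other groups had 1, 3, 5 or 7 d of heat at 45 °C, applied from morning to late evening, and each of the 5 groups has 3 libraries, replicates a, b and c. No unheated leaves of the later days are among them, so days of heat cannot be told apart from sampling day or plant age. The methods describe separate biological replicates of leaves from 6 plants, whereas the labels speak of replicate RNA being pooled, and 7 d occurs only in the labels. If the libraries of a group share RNA, the p-values measure only a technical spread.

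HSP70 and HSP90 are ATP-driven chaperones found throughout the living world. HSP70 binds exposed hydrophobic stretches of unfolded proteins, with J-domain proteins delivering the client and nucleotide exchange factors such as BAG and GrpE proteins resetting the cycle. HSP90 acts later, on nearly folded clients that include kinases and receptors, and in plants both are held to restrain heat stress transcription factors in unstressed cells. Heat-inducible copies exist beside constitutive ones in each family.

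The identity of gene15133 was checked against the expression values printed with its qRT-PCR primers, since those values were given by LOC name only. They matched the row of gene15133 within 0.05% in 12 of 12 libraries. The primers are shown because they define the stretch of the transcript that the study assayed by a separate method.
LOC107423197 forward: gccaccatattaaggctcctc
LOC107423197 reverse: gtttggagaggcattggggg
The forward primer has 21 bases and the reverse primer 20. In the RefSeq gene table of the ASM3175591v1 assembly, the next gene after LOC107430166 is LOC107430207, another gene that the study calls heat shock protein 83-like. No row of the FPKM table matched its printed values, so LOC107430207 was not analysed here. Reads of like sequences could be divided between such neighbours, and this was not examined.

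Among all libraries, replicate a at 7 d stood furthest from its own replicates, and the results that turn on it are given with and without it. Its log2(FPKM + 1) values correlated with those of replicates b and c at 7 d at r = 0.909 and 0.906 across the genes tested, against 0.966 between b and c. Replicate a was the less close one on every day: at 0 to 5 d it correlated with b and c at 0.927 to 0.946, and b with c at 0.966 to 0.969. Genes are not independent replicates, so no p is given. Sequencing depth was inferred from the spacing of the lowest FPKM values. Relative to replicate a of 0 d it lay between 0.901 and 1.30, and for replicates a, b and c of 7 d it was 0.978, 0.962 and 1.05. The 7 chlorophyll a-b binding protein genes used as a check of leaf identity were at 0 in no library. They were chosen after their values were seen, so this check could hardly have failed. Their summed FPKM ranged over 7330 to 11791 before heat, and after 1 d it was 17123 to 20189. It was 7760 to 12974 after 3 d, 7479 to 8216 after 5 d and 14182 to 16394 after 7 d. Its part in the results below was not tested. In bulk leaf RNA, a change in the share of a cell type and a change in RNA per cell cannot be told apart.

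gene21597, the HSP90 gene, was almost silent before heat and was among the well expressed genes of the leaf from the first day. Its FPKM at 0 d was 0.621, 0.387 and 0.349 in replicates a, b and c. At 1 d it was 76.5, 54.3 and 45.2. Every library at 1 d lay above every library at 0 d, with no overlap, and its rank in FPKM among the 32876 genes went from 18713, 20290 and 20618 at 0 d to 1128, 1649 and 2139 at 1 d. At 3 d the FPKM was 82.7, 105 and 98.7, and at 5 d it was 109.8, 124 and 127. Within this stretch each day's libraries lay above those of the day sampled before. At 7 d it was 271 in replicate a but 34.0 in b and 31.0 in c. Replicate a thus held the highest value of the 15 libraries, whereas b and c were below every library at 1, 3 and 5 d and still far above those at 0 d.

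As means, the FPKM of gene21597 was 0.452 ± 0.147 (SD, n = 3) before heat. After 1 d it was 58.7 ± 16.1 (SD, n = 3), after 3 d 95.6 ± 11.7 (SD, n = 3) and after 5 d 120.2 ± 9.16 (SD, n = 3). At 7 d the mean was 112 with an SD of 138 (n = 3), larger than the mean itself. Relative to 0 d the mean FPKM was 129.7, 211, 266 and 248 times higher on the 4 heat days in turn. Without replicate a at 7 d the libraries at 7 d stood at 75.3 and 68.5 times the 0 d mean. These ratios rest on a denominator under 1 FPKM and so carry the error of a small value.

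gene15133, the HSP70 gene, was already expressed before heat and rose less steeply. Its FPKM at 0 d was 1.50 in replicate a, 4.53 in b and 2.54 in c. At 1 d it was 27.8, 23.1 and 23.5. The lowest library at 1 d was thus above the highest at 0 d, and the spread between libraries, which was 3.02-fold from lowest to highest at 0 d, was 1.20-fold at 1 d. At 3 d the FPKM was 29.7, 33.0 and 33.6, and at 5 d it was 45.9, 47.8 and 46.1. No library at 3 d overlapped with 1 d, and none at 5 d with 3 d. At 7 d it was 68.8 in replicate a and 16.5 and 16.6 in b and c. The order is that of gene21597: a was the highest of all 15 libraries, and b and c lay under every library of 1 to 5 d.

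The mean FPKM of gene15133 was 2.86 ± 1.54 (SD, n = 3) before heat and 24.8 ± 2.59 (SD, n = 3) after 1 d. After 3 d it was 32.1 ± 2.12 (SD, n = 3), after 5 d 46.6 ± 1.08 (SD, n = 3) and after 7 d 34.0 ± 30.2 (SD, n = 3). Relative to 0 d these means were 8.66, 11.2, 16.3 and 11.9 times higher at 1, 3, 5 and 7 d. The libraries b and c at 7 d were at 5.78 and 5.79 times the 0 d mean.

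**Figure D1:**
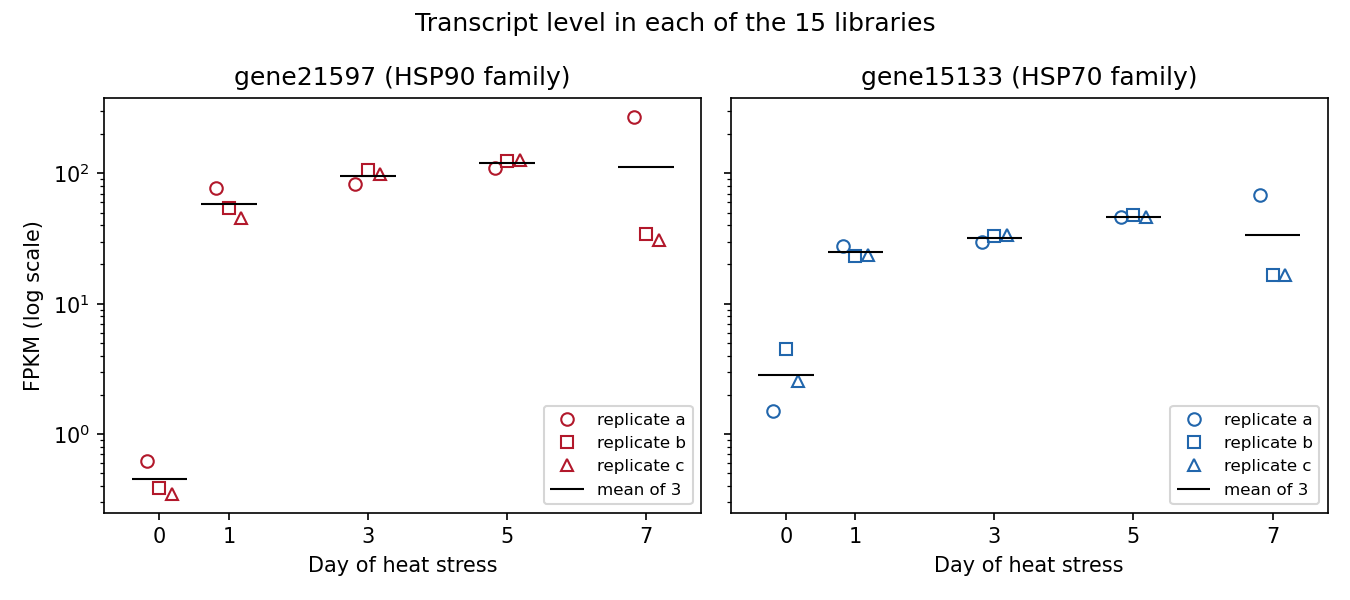
FPKM on a log scale against day of heat stress in each of the 15 libraries, for gene21597 on the left and gene15133 on the right. Circles, squares and triangles are replicates a, b and c, and the lines are means of 3. Both genes step up between 0 d and 1 d. Their means are higher again at 3 d and at 5 d, in steps that were not called in the 15-library tests below. At 7 d replicate a (271 and 68.8) is split from b and c.

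Whether each heat day differed from 0 d was tested with limma on log2(FPKM + 1) over the 19925 genes that reached an FPKM of 1 in 3 libraries. Calls needed an adjusted p (Benjamini-Hochberg) no larger than 0.01 together with at least a 2-fold difference. On this scale, which understates the change of a gene at low FPKM, gene21597 was higher by 5.33 (SE 0.59, limma adjusted p = 4.84e-05) at 1 d and by 6.05 (adjusted p = 1.24e-05) at 3 d. The difference was 6.39 (adjusted p = 6.45e-06) at 5 d and 5.54 (adjusted p = 4.79e-05) at 7 d. These were the highest log2 differences of all genes tested at 1, 3, 5 and 7 d, rank 1 of 19925 each time. Without replicate a at 7 d the difference at 7 d was 4.53 (SE 0.19, limma adjusted p = 1.83e-07) and ranked 21 of 19850.

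gene15133 was higher than at 0 d by 2.81 at 1 d (SE 0.43, limma adjusted p = 3.72e-04) and by 3.17 at 3 d (adjusted p = 1.14e-04) on the same scale. At 5 d the difference was 3.70 (adjusted p = 2.91e-05) and at 7 d 2.93 (adjusted p = 3.48e-04). It ranked 55, 49, 52 and 72 from the top at 1, 3, 5 and 7 d. Without replicate a at 7 d, the 7 d difference was 2.26 (SE 0.24, limma adjusted p = 7.98e-05) and ranked 214. The 7 d call of gene15133 was lost in a fit of the 6 libraries of those time points alone, with a limma adjusted p of 0.018.

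At each heat day, then, 2 of 2 genes were called higher than at 0 d. Both were chosen with earlier results of these data known, so this count only describes them. Of all genes tested, 4.49%, 7.53%, 9.28% and 4.14% were called higher at 1, 3, 5 and 7 d. All 3 libraries were above all 3 of 0 d for both genes at every heat day. Over all genes tested that held for 27.1%, 31.8%, 33.6% and 24.8% at 1, 3, 5 and 7 d.

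The timing after the first day was read from the steps between neighbouring heat days. For gene21597 the step from 1 d to 3 d was 0.72 on the log2 scale (95% interval -0.56 to 2.01) and that from 3 d to 5 d was 0.33 (-0.95 to 1.61). For gene15133 the same steps were 0.36 (-0.56 to 1.29) and 0.53 (-0.40 to 1.45). None was called, although the libraries of 3 d lay above those of 1 d and the libraries of 5 d above those of 3 d for both genes. Such a lack of overlap was found for 18.8% of all genes tested from 1 d to 3 d and for 10.3% from 3 d to 5 d. From 5 d to 7 d the differences were -0.85 (-2.13 to 0.44, limma adjusted p = 0.383) for gene21597 and -0.78 (-1.70 to 0.15, limma adjusted p = 0.262) for gene15133. Thus 0 of 2 genes were called in each step, and 0 of 2 had an unadjusted limma p under 0.05. The spread at 7 d enters the error of the earlier steps too. In the fit of 12 libraries without 7 d, unadjusted limma p from 1 d to 3 d was 0.0019 for gene21597 and 0.136 for gene15133. From 3 d to 5 d it was 0.087 and 0.040. After adjustment none of these steps was called. With letter a left out on every day, the step of gene21597 from 1 d to 3 d was 1.03 and was called (limma adjusted p = 3.01e-04). The share of all genes called either way was 0.221% from 1 d to 3 d, 0.181% from 3 d to 5 d and 0.683% from 5 d to 7 d.

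The step to 7 d turned on 1 library. Without replicate a at 7 d, gene21597 was lower at 7 d than at 5 d by -1.85 (SE 0.19, limma adjusted p = 1.19e-04) and gene15133 by -1.44 (SE 0.24, limma adjusted p = 0.0023). In that fit 2 of 2 genes were called lower, beside 1.74% of 19850 genes tested. gene21597 was then also called lower at 7 d than at 3 d, by -1.52 (limma adjusted p = 9.10e-04), and higher at 5 d than at 1 d, by 1.05 (limma adjusted p = 0.0028). With all 15 libraries the difference between 5 d and 1 d was the same 1.05 but had a limma adjusted p of 0.278, since the spread at 7 d enters the common error. The difference of gene15133 between 7 d and 3 d was -0.91 without that library (limma adjusted p = 0.0424), short of both thresholds. By mean FPKM both genes had the order 0 d, 1 d, 3 d, 7 d, 5 d, and in this order only the neighbours 0 d and 1 d differed beyond their spread in the fit of 15 libraries. The place of 7 d rests on replicate a: the mean of b and c was 32.5 for gene21597 and 16.5 for gene15133, which puts 7 d between 0 d and 1 d.

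**Figure D2:**
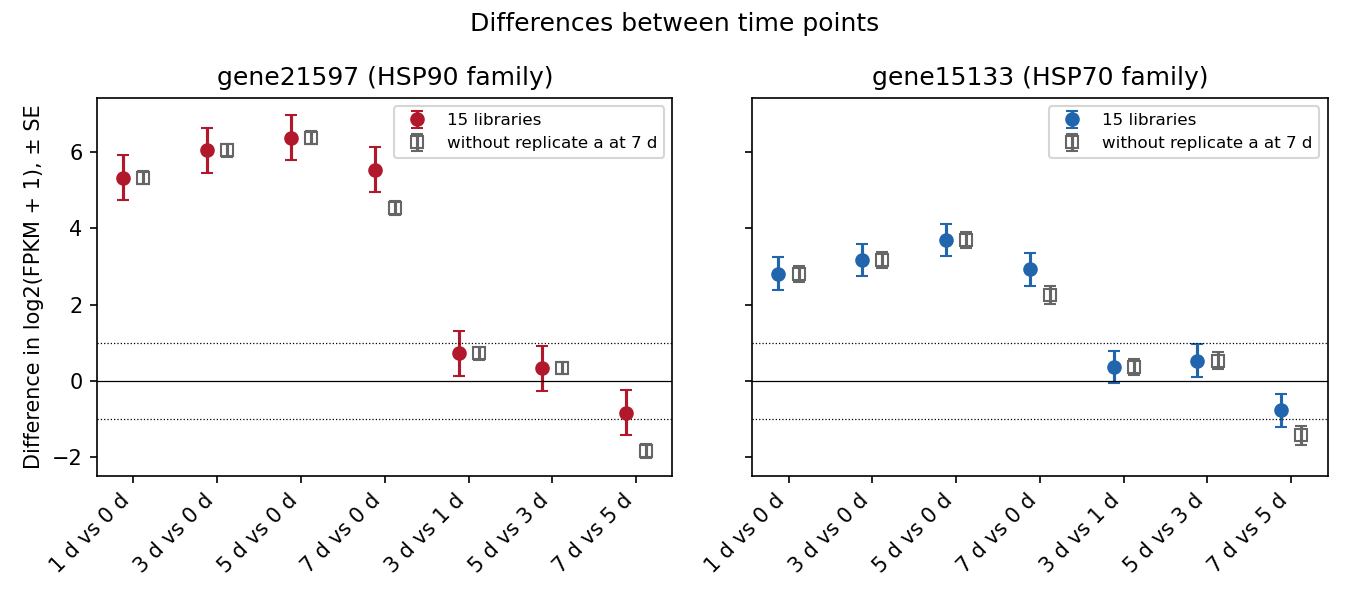
Differences between time points in log2(FPKM + 1) with SE bars, for gene21597 on the left and gene15133 on the right, in the fit of 15 libraries (filled circles) and without replicate a at 7 d (open squares). Dotted lines mark a fold of 2. The step from 5 d to 7 d moves from -0.85 to -1.85 for gene21597 and from -0.78 to -1.44 for gene15133, and the SE shrinks.

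The spread between replicates of both genes depended on the day. The SD of log2(FPKM + 1) of gene21597 was 0.14, 0.38, 0.18 and 0.11 at 0, 1, 3 and 5 d, against medians over all genes tested of 0.20, 0.18, 0.21 and 0.19. At 7 d it was 1.75, larger than that of 98.7% of the genes tested, where the median was 0.23. For gene15133 the SD was 0.57 at 0 d, which is the 90th percentile of the genes tested. It was 0.14, 0.09 and 0.03 at 1, 3 and 5 d, at the last of which 3.85% of genes had a smaller one, and was 1.15 at 7 d, above 95.9% of genes. Among all genes tested at 7 d, the excess of replicate a over b and c on the log2 scale ranked 60 for gene21597 and 214 for gene15133.

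**Figure D3:**
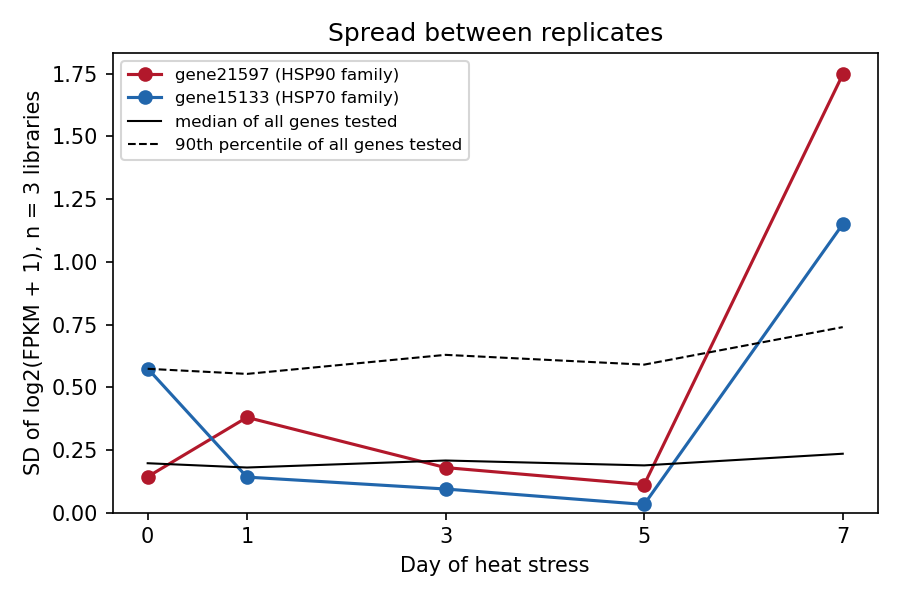
SD of log2(FPKM + 1) over the 3 libraries of each day for gene21597 (red) and gene15133 (blue), with the median (solid black) and the 90th percentile (dashed black) of all genes tested. Both genes rise far above the 90th percentile at 7 d (1.75 and 1.15), and gene15133 meets it at 0 d (0.57).

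The balance between the transcripts of gene21597 and gene15133 turned over on heating. Other HSP90 and HSP70 genes, such as LOC107430207, gene2890 and gene2891, do not enter this ratio. At 0 d gene15133 had the higher FPKM in all 3 libraries, with a ratio of gene21597 to gene15133 of 0.414, 0.0854 and 0.137 in a, b and c. In the 9 libraries of 1, 3 and 5 d gene21597 was higher, at 1.92 to 3.19 times gene15133. At 7 d the ratio was 3.94, 2.06 and 1.87. On the log2(FPKM + 1) scale the ratio averaged -1.34 ± 0.69 (SD, n = 3) before heat and 1.36 ± 0.21 (SD, n = 9) over 1, 3 and 5 d. The difference of 2.69 had p = 0.00909 in a two-sided exact permutation test over libraries, the smallest p that this design allows, so the rise of gene21597 was larger than that of gene15133. By day the mean log2 ratio was 1.18, 1.54, 1.35 and 1.28 at 1, 3, 5 and 7 d, and its differences between these days were not tested.

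**Figure D4:**
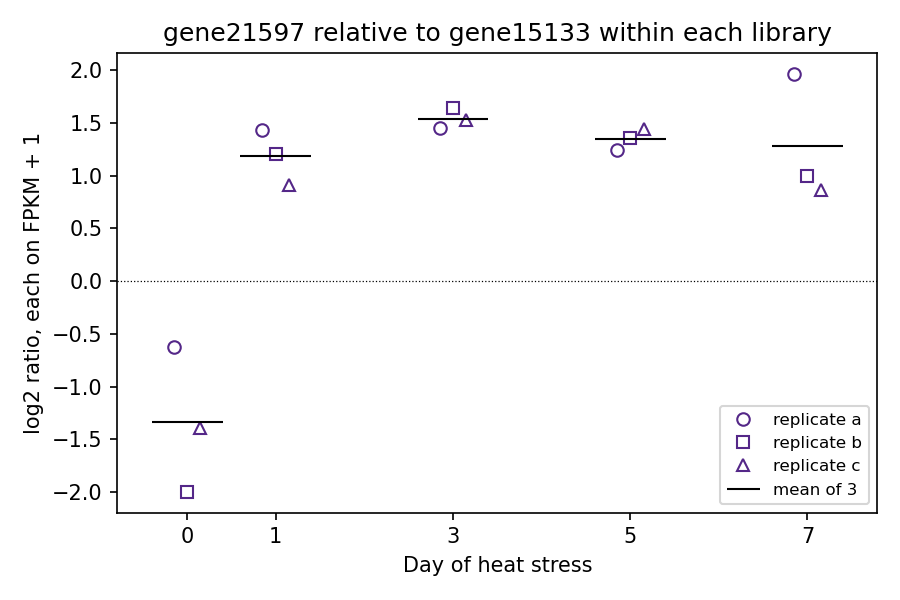
Log2 ratio of gene21597 to gene15133 within each library, each on FPKM + 1, against day of heat stress. Symbols are replicates a, b and c, lines are means of 3, and the dotted line is an equal level. The 3 libraries at 0 d lie below 0 and all 12 heated libraries lie above it.

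The other HSP70 genes with a name in the sources used here also started from a low level and were higher after 1 d of heat. Most names come from the study's lists of genes that responded to heat, so HSP70 genes that did not respond could be missing. gene2890 and gene2891, which carry adjacent IDs and are both annotated with an Hsp70 domain, could share reads, so their values are uncertain. gene2890 had 0.149, 0.101 and 0.246 FPKM at 0 d and 9.25, 8.17 and 7.15 at 1 d. At 7 d it had 33.1 in replicate a against 5.02 and 6.45 in b and c, the split seen for gene21597 and gene15133. gene2891 had 0.602, 0.919 and 0.823 FPKM at 0 d and 26.6, 16.5 and 14.96 at 1 d. It was uneven at 5 d, with 7.65, 63.1 and 15.97, and at 7 d it had 124 in replicate a, 10.4 in b and 10.1 in c. Both were called higher than at 0 d at 1, 3, 5 and 7 d, and the log2 difference at 5 d was 3.89 (limma adjusted p = 4.17e-05) for gene2890 and 3.57 (limma adjusted p = 0.0039) for gene2891. Without replicate b at 5 d that of gene2891 was 2.77, with a limma adjusted p of 0.0199. Its 5 d call was also lost without replicate a, b or c of 0 d or c of 5 d, where limma adjusted p was 0.0103 to 0.0134. With letter b or letter c left out on every day it was lost as well, at a limma adjusted p of 0.073 and 0.0564.

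Around both genes stand the proteins that work with them, here 33 further genes in lists of HSP70 genes, ClpB/HSP101 disaggregases, J-domain proteins, co-chaperones, small HSPs and heat stress transcription factors. Most carry a name because the study lists them as responding to heat, so their counts are descriptions. The study made its lists from both of its cultivars, these libraries of ‘HS’ at 0 to 5 d included. A share above that of all genes is therefore partly built in. Of the 32 that could be tested, 15, 17, 19 and 12 were called higher than at 0 d on the 4 heat days in turn. Over all genes tested the shares called higher were 4.49%, 7.53%, 9.28% and 4.14%. At 5 d 2 were called lower, beside 8.79% of all genes tested, and at 1, 3 and 7 d limma called 0 lower, where 0, 3 and 1 had an unadjusted p under 0.05 with a lower level. With gene21597 and gene15133 counted in, 14 were called higher at 7 d, against 14 without replicate a at 7 d and 8 without replicate b at 0 d. The median log2 difference of the 32 was 1.28, 1.48, 1.74 and 1.26 at 1, 3, 5 and 7 d, against 0.04, 0.12, 0.10 and 0.04 for all genes tested. Without replicate a at 7 d the median at 7 d was 0.75, against 0.09 for all genes. None of these 32 reached the log2 difference of gene21597 at 5 d. gene16134, a class IV small HSP that holds unfolding proteins for refolding, came closest at 6.30 (limma adjusted p = 1.13e-05).

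Genes that act directly on HSP70 and HSP90 differed in how far they followed them. Among the 6 co-chaperones, 4 were called higher at each of 1, 3 and 5 d and 3 at 7 d. Over all genes tested the shares were 4.49%, 7.53%, 9.28% and 4.14% at 1, 3, 5 and 7 d. The GrpE gene of the list, gene28189, was called at no heat day against 0 d. gene15604, BAG family molecular chaperone regulator 6, went from 5.61, 4.57 and 4.86 FPKM at 0 d to 298, 219 and 205 at 1 d. Unlike in gene21597, replicate a was the lowest at 7 d, with 181 against 262 and 258 in b and c. At 5 d gene15604 had 343 in a against 160 and 150 in b and c. gene13986, a peptidyl-prolyl isomerase with the TPR domain by which such proteins dock onto HSP90, had 6.38, 9.72 and 10.2 FPKM at 0 d. It had 86.6, 111 and 111 at 5 d, and at 7 d 129, 18.8 and 18.5, here with replicate a the highest. Of the J-domain proteins, which bring clients to HSP70, 2 of 7 were called higher at 5 d and 1 of 7 lower, where 9.28% and 8.79% of all genes were. gene19164, chaperone protein dnaJ 11, was higher by 2.66 on the log2 scale at 5 d (limma adjusted p = 8.59e-05). gene1686, with a DnaJ domain, was higher by 2.32 (limma adjusted p = 0.0098), a call that was lost under many of the alternatives run.

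Beside 9.28% of all genes tested, all 3 disaggregase genes were called higher at 5 d. They belong to the ClpB family, whose members pull proteins out of aggregates together with HSP70. gene11408, an HSP101 gene, was higher by 2.65 on the log2 scale (limma adjusted p = 1.88e-04), and gene12505, ClpB4, by 1.65 (limma adjusted p = 1.52e-04). Among the small HSPs of the list 4 of 7 tested were called higher and 1 lower, where 9.28% and 8.79% of all genes tested were. gene28274, a chloroplastic one, was higher by 5.10 (limma adjusted p = 3.97e-05). The list is not the whole family. It leaves out gene6564, a class I small HSP with a mean of 3.77 FPKM at 0 d and 74.8 at 5 d. Of the heat stress transcription factors 4 of 7 were called higher at 5 d, beside the same 9.28% of all genes tested. The largest differences were those of gene21394, factor B-2b, at 2.58 (limma adjusted p = 9.13e-05) and of gene12331, factor A2, at 2.17 (limma adjusted p = 2.16e-04).

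**Figure D5:**
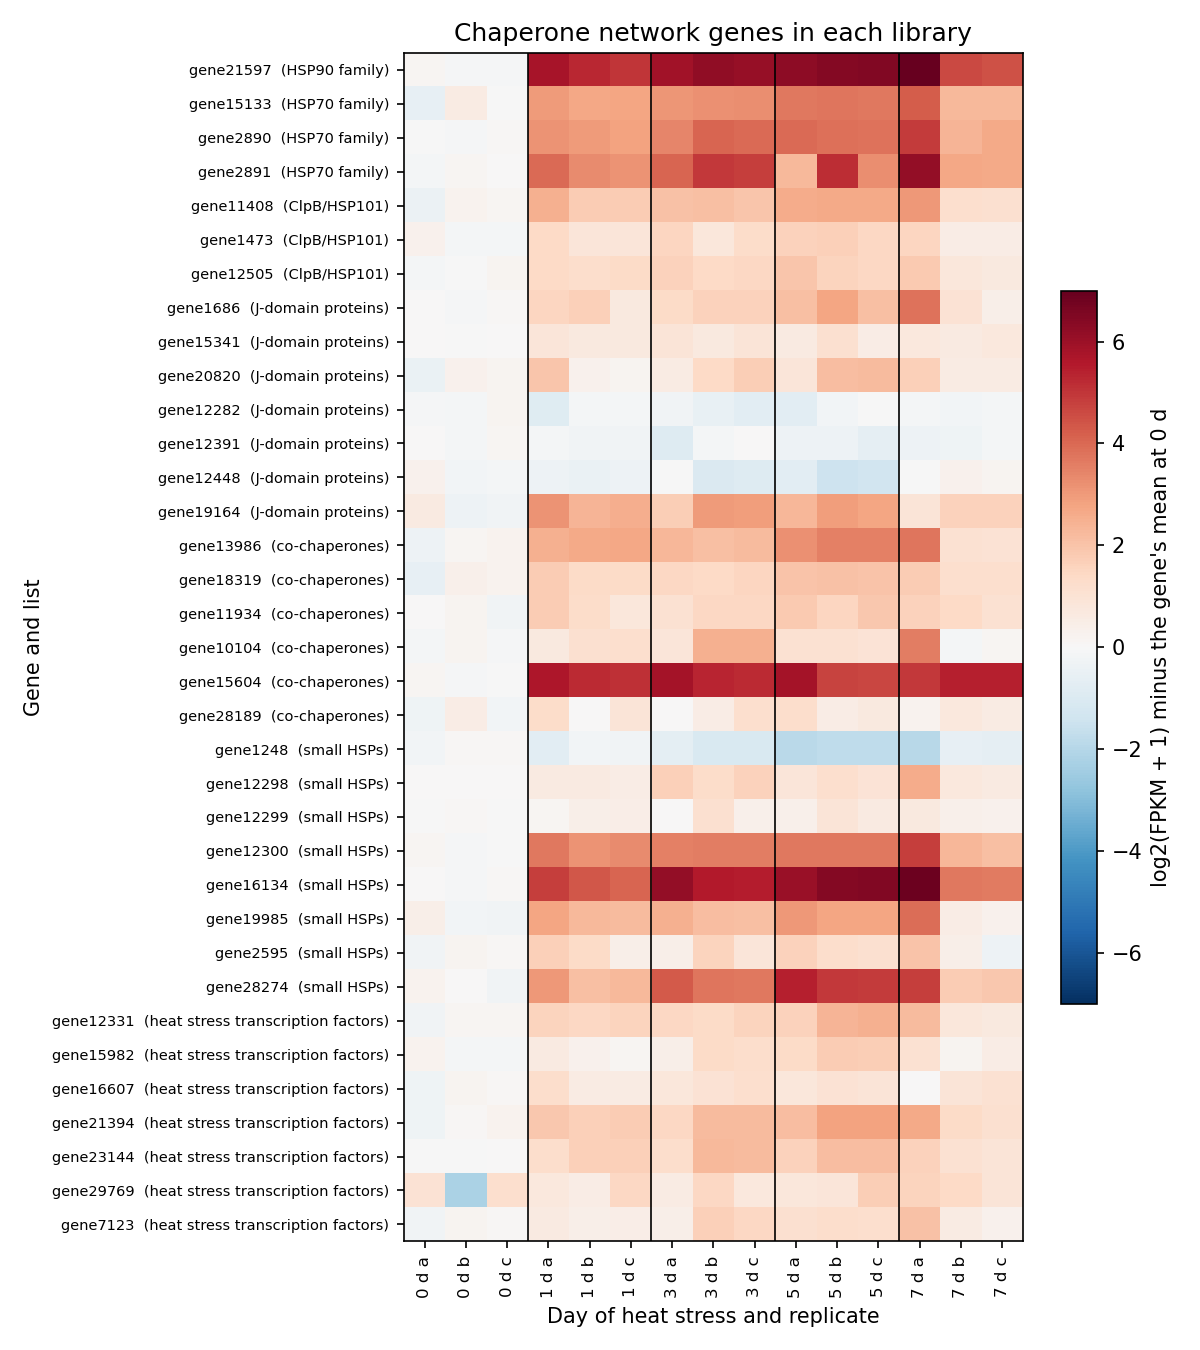
Heat map of the 35 chaperone network genes, rows, in the 15 libraries, columns, as log2(FPKM + 1) minus the mean of the gene at 0 d, with red for higher and blue for lower. gene21597 is in the top row and gene15133 in the second. The column of replicate a at 7 d is darker red than those of b and c for many genes, including both of these.

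The split of the libraries at 7 d was shared by much of the network. Replicate a exceeded both b and c at 7 d in 25 of the 34 list genes that could be tested, the HSP90 and HSP70 genes included, and in 29.9% of all genes tested. The median excess on the log2 scale was 1.25 in the list genes and -0.14 in all genes. At 1 d replicate a was also above b and c in 26 of 34 list genes, with a median excess of 0.39, against 35.3% and -0.04 over all genes. At 0, 3 and 5 d it was above both in 10, 12 and 8 of the 34 and below both in 16, 19 and 19, and over all genes it was above both in 30.6%, 33.2% and 37.3%. Of the 7 chlorophyll a-b binding genes, 5 had replicate a above both b and c at 7 d, with a median excess of 0.11, and the summed FPKM was 16394, 15759 and 14182 in a, b and c. At 0 and 3 d all 7 had it above both, with a median excess of 0.32 and 0.69. At 1 and 5 d 2 and 3 of them did, with a median of 0.01 and -0.06. What sets replicate a at 7 d apart was not tested.

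The genes nearest to each of the pair were sought by the mean absolute difference, over the 15 libraries, between log2(FPKM + 1) profiles set to their own mean at 0 d. For gene21597 the nearest were gene16134 at 0.49, gene15604 at 0.70, gene31367 at 0.90, gene8988 at 0.97 and gene11556 at 1.13. gene11556 is annotated as transcription factor TCP15, and gene31367 and gene8988 have no name in the sources used here. For gene15133 the nearest were gene3851 at 0.26, gene6564 at 0.28, gene2369 at 0.29, gene12300 at 0.34 and gene2890 at 0.36. gene6564 (LOC107413804) is annotated as a 16.9 kDa class I heat shock protein, gene2369 as a mitochondrial aconitate hydratase and gene12300 as a class II small HSP, while gene3851 has no name. Closeness in this measure depends on the size of the change, and the pair itself lay 2.24 apart. gene15133 thus ranked 38 among the neighbours of gene21597, but gene21597 ranked 5188 among those of gene15133. With replicate a at 7 d left out, the same 5 genes were nearest to each.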

How the data were processed

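Leaf RNA of ‘HS’ at 0, 1, 3, 5 and 7 d of heat was analysed in 15 libraries, grouped by their titles. Reads had been trimmed by the authors, mapped with TopHat 2 and Bowtie 2 and assembled with Cufflinks, and FPKM values were deposited for each gene in each library. Per the submitters' processing notes, Trimmomatic 0.36 and FastQC were used, and the genome build is not given in the sources used here. The table holds no counts, so error was taken from the spread of 3 libraries.

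Differences on the log2(FPKM + 1) scale came from limma 3.58.1 (R 4.3.3; lmFit, eBayes with an intensity trend), in 1 fit of all 15 libraries on time point, with 10 residual degrees of freedom. Genes needed an FPKM of 1 in 3 libraries. The step was tested on simulated data. The ratio was tested in scipy 1.17.1, with Python 3.11.15, numpy 2.4.6, pandas 2.3.3 and matplotlib 3.10.9. Depths were sought within 0.8 on the log2 scale of that of replicate a at 0 d, among genes at 0.3 FPKM or less.

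Both genes and the gene lists were chosen with earlier results of these data known. The rule for further names took all HSP90 and HSP70 list genes, the 2 genes of each other list with the largest log2 difference at 5 d either way, and the 5 nearest profiles to each gene. LOC names were paired with IDs for 1238 genes through the supplementary tables. The chlorophyll a-b binding genes were chosen after the values were seen. Alternatives were a pseudocount of 0.1, no filter, median-of-ratios scaling, quantile normalization, only the time points compared, 12 libraries without 7 d, no trend, a replicate block, and fits without 1 letter or 1 library.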

Additional observations from a re-analysis of the deposited data

How the results depend on the processing

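Both genes stayed higher than at 0 d at 1, 3, 5 and 7 d under every alternative run, and 195 of the 206 alternative values kept the call. The calls that were lost came from fits without letter b or c at every time point, with 10 libraries, and from the fit of 0 and 7 d alone. With 1 letter or 1 library left out, the log2 difference of gene21597 from 0 d ranged from 5.13 to 5.50 at 1 d and from 4.53 to 6.08 at 7 d. That of gene15133 ranged from 2.46 to 3.16 at 1 d, from 2.90 to 3.47 at 3 d and from 1.99 to 3.56 at 7 d, and was 2.93 in the fit of 0 and 7 d alone. Among heat days, gene21597 ranged from 0.53 to 1.03 for 3 d against 1 d, from 0.84 to 1.32 for 5 d against 1 d, from -1.92 to -0.27 for 7 d against 5 d, from -0.80 to 0.74 for 7 d against 1 d and from -1.62 to 0.05 for 7 d against 3 d. For gene21597 5 d against 1 d was also called in the 12 libraries without 7 d, at 1.05. gene15133 ranged from -1.45 to -0.42 for 7 d against 5 d, from -0.55 to 0.45 for 7 d against 1 d and from -0.97 to 0.11 for 7 d against 3 d.

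Values of 7 d against 1 d that turned sign were -0.59 and -0.80 for gene21597 and -0.47 and -0.55 for gene15133, without letter a and without replicate a at 7 d. For 7 d against 3 d, gene21597 turned to 0.030 and 0.049 without letters b and c and to 0.02 without replicate c at 7 d. gene15133 turned to 0.10 and 0.11 without letters b and c, and to 0.08 without replicate b or c at 7 d. The count of list genes called higher ranged from 1 to 20 at 1 d, 3 to 25 at 3 d, 8 to 24 at 5 d and 1 to 17 at 7 d. It was 4 at 7 d in the fit of 0 and 7 d alone, and 8 without replicate b at 0 d. The log2 ratio difference was 2.34 to 3.04 without 1 letter, where the smallest exact p is 0.0714, so no such fit could pass 0.05. A pseudocount of 0.1 raised the log2 difference of gene21597 at 5 d to 7.80 and that of gene15133 to 4.11.

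Libraries of the same letter were at most weakly alike: the deviations of 30 same-letter pairs correlated at -0.10 to 0.12, and 1 pair was above 0.1. Yet 9 of 15 libraries were on average closest to their own letter. With the letter as a replicate block, gene21597 at 5 d was higher by 6.39 and gene15133 by 3.70, no call of either gene changed, and 18, 20, 20 and 14 list genes were called higher at 1, 3, 5 and 7 d.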

Other observations

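Some genes of the network went against the HSP90 and HSP70 genes or varied on their own. They were chosen after their values were seen. gene1248, a class V small HSP, had 67.3, 82.97 and 81.5 FPKM at 0 d and 20.3, 21.4 and 21.6 at 5 d, a log2 difference of -1.82 (limma adjusted p = 2.93e-04 with Benjamini-Hochberg adjustment). At 7 d it had 19.6 in replicate a against 52.3 and 50.1 in b and c, so that here replicate a was the lowest. gene12448, annotated as JAC1-like with a DnaJ domain, was also called lower at 5 d, by -1.19 (limma adjusted p = 0.0017). gene10104, BAG family molecular chaperone regulator 5, had 2.46, 10.02 and 9.80 FPKM at 3 d and 22.2, 0.737 and 1.13 at 7 d, and was called at no heat day against 0 d in the fit of 15 libraries.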
